A study of Mus musculus with 5 samples.

Results

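Distal regions that were open in hemogenic endothelium (HE) and in none of the other stages examined, 9885 of 68846 merged regions (14.4%, 95% Wilson interval 14.1 to 14.6), are described here. They were chosen by the openness calls themselves: each DNaseI hypersensitive site was reduced to the 500 bp around its middle, windows sharing 25% or more of their length were joined into 1 region whatever their stage, and the regions kept were those with an HE window and no other. The centre also had to lie more than 2 kb from every protein-coding transcription start site (TSS) that RefSeq curates for the mouse genome GRCm38 (mm10). That these regions were open in HE alone is therefore the way they were selected and not a finding. HE-only regions closer to a TSS, 1912 in number, were left out. The study also mapped open sites in undifferentiated ES cells, which were not among the lists used here. Regions already open in ES cells were therefore not removed.

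DNaseI-seq was carried out on 5 sorted populations that had been derived in culture from strain 129 mouse ES cells with a GFP reporter for Brachyury (Bry), a gene of early mesoderm. In order of differentiation, MES was mesoderm sorted as Bry.GFP+ but FLK1-, HB was the Bry.GFP+ FLK1+ hemangioblast, HE was hemogenic endothelium with the phenotype Bry.GFP+ Tie2+/Ckit+/CD41-, HP was the CD41+ progenitor population, and MAC were CD11b+ macrophages. Each stage was 1 list of sites, so no spread between replicates can be given, and the MAC label names 2 replicates together. All intervals below cover counting error only, and no p-value was computed. The lists held 21949 (MES), 24729 (HB), 33305 (HE), 17734 (HP) and 37456 (MAC) sites, with median widths of 800, 900, 1200, 900 and 600 bp, and read depth is unknown from them. The longer lists can hold more single-stage sites for that reason alone. With every list reduced to its widest sites, as many as HP has, there were 3007 HE-only distal regions in place of 9885, and they were 11.6% of distal regions in place of 18.9%.

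DNase I cuts chromatin where nucleosomes have been displaced, and distal sites of this kind often mark enhancers, where transcription factors bind in combination. HE is a transient endothelium from which blood cells bud in the endothelial-hematopoietic transition. Endothelial genes are known to be driven by ETS factors together with SOXF factors (SOX7, SOX17 and SOX18), GATA2 and forkhead proteins, while RUNX1 and its partners establish the blood programme.

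As a check of the label, sites were counted within 1 kb of the TSS of marker genes. Of 10 endothelial markers, 8 had such a site in HE (Tek, Kdr, Cdh5, Pecam1, Tie1, Eng, Flt1 and Kit, but not Emcn or Esam), against 2 in MES, 3 in HB, 4 in HP and 2 in MAC. Of 6 macrophage markers, only Cd68 had one in HE, against all 6 in MAC. Sites in HE were also found at 4 of 6 progenitor markers (Itga2b, Myb, Spi1 and Cd34), against 2 in HP, 3 in MAC and 0 in MES and HB. Of 5 heart and smooth muscle markers, 4 had one in HE (Nkx2-5, Tnnt2, Acta2 and Tagln), against 2 in HP and 1 in each of the other stages. Of 5 mesoderm markers, 4 had one in HE, all 5 in MES and HB, 0 in HP and 1 in MAC, and of 4 pluripotency markers 2 had one in HE (Nanog and Esrrb), 4 in MES, 3 in HB and 0 in HP and MAC. An open promoter is not a transcript, and whether cells of other types were in the sorted population was not tested.

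To show what the regions look like, the central 300 bp of 6 of them are printed from GRCm38 (plus strand, 5′ to 3′). They were taken from 256 members whose nearest gene was an endothelial or blood gene of 3 lists described below, with 1 chromosome left out, as those with the most different motifs out of 8, with 1 region per gene. Capitals mark the matches, on either strand, to the consensus sequences of the ETS factors (CAGGAAG or CCGGAAG), of the GATA factors (AGATAA), of the SOX factors (CCATTGT), of the TEAD factors (ACATTCCA or ACATTCCT or GCATTCCA or GCATTCCT), of the forkhead factors (TGTTTAC), of RUNX proteins (TGTGGTC or TGTGGTT), of AP-1 (TGACTCA) and of helix-loop-helix factors such as TAL1 (E-box, CAGCTG or CAGATG). The Hhex and Myc regions carried 5 different motifs each and the other 4 regions carried 4. A match is a description of the letters and not evidence that a factor was bound.

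Hhex: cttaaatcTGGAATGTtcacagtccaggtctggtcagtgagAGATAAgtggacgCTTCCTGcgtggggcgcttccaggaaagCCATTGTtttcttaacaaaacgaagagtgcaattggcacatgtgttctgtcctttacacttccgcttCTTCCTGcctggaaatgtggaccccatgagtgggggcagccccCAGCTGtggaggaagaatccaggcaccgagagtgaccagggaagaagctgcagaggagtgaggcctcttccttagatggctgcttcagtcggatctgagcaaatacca
Myc: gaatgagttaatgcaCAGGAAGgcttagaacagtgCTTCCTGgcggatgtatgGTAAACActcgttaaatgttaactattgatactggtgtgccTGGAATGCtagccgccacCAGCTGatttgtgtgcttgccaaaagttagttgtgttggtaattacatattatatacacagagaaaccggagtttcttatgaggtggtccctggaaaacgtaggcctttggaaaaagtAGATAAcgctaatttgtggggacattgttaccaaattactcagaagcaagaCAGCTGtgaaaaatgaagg
Adgrf5: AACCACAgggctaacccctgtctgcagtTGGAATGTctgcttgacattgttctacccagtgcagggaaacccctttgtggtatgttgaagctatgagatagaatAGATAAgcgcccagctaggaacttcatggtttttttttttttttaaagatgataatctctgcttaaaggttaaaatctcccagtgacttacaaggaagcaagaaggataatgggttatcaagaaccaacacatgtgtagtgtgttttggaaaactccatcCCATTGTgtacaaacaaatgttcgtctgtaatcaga
Klf2: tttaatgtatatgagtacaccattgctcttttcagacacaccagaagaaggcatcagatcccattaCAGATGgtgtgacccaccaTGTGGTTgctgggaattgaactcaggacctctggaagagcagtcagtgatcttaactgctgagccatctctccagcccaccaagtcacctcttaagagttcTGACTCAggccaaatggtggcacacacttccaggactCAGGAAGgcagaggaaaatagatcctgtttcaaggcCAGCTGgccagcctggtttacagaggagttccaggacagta
Kit: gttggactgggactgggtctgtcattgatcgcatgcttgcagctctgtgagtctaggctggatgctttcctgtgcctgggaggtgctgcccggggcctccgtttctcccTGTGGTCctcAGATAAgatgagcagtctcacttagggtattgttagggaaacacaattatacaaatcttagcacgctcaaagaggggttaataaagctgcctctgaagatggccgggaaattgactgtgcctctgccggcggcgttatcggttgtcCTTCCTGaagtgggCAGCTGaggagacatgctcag
Efnb2: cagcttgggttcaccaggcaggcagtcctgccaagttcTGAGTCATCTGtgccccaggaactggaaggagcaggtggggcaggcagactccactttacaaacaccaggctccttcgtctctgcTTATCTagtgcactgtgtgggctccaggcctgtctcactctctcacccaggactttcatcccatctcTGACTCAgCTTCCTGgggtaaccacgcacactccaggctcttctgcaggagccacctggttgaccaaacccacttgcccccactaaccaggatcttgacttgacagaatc

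The Hhex stretch (chr19:37481830-37482129) was intergenic, 47.1 kb downstream of the TSS of this homeobox gene of early endothelium and blood, and read TEAD, GATA, ETS, SOX, ETS and E-box in order. The Myc stretch (chr15:62128642-62128941) lay 143 kb downstream of its TSS, and the Efnb2 stretch (chr8:8602774-8603073) 58.3 kb downstream of the gene of the arterial ligand ephrin-B2. An intron held both the Adgrf5 stretch (chr17:43395574-43395873), 6.26 kb from the TSS of an endothelial adhesion receptor, and the Kit stretch (chr5:75607976-75608275), 33.1 kb from the TSS of the receptor used in the sort. In the Kit stretch a RUNX match stood 3 bp before a GATA match, and in the Efnb2 stretch an AP-1 match shared bases with an E-box match. The Klf2 stretch (chr8:72336974-72337273) was 18.1 kb downstream of this flow-responsive factor, and 77% of it was repeat sequence, soft-masked in the genome file, including 2 of its 5 matches. No more than 12.3% of any of the other 5 stretches was repeat sequence, but the SOX match of the Hhex stretch lay in it. The nearest deposited site of another stage was 131 bp from the Klf2 region and 333 bp from the Hhex region, while the Kit and Adgrf5 regions had none within 31876 and 35855 bp, respectively.

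It was next asked how the members stood to the rest of the HE list. HE-only regions were 9885 of the 20918 distal regions open in HE (47.3%, interval 46.6 to 47.9). The corresponding single-stage share was 22.6% in MES, 26.5% in HB, 17.2% in HP and 73.8% in MAC. The members were narrower than the other distal sites of HE, with a median deposited width of 900 bp (quartiles 700 and 1200 bp) against 1100 bp for the 11033 distal regions that HE shared with another stage. HE-only regions near promoters had a median width of 1200 bp. At the threshold of the rule, 355 members (3.59%) had a window of another stage that overlapped theirs by less than this minimum, the closest with its middle 376 bp away. The member nearest to a TSS was 2001 bp from that of Zfp217, and the farthest one left out was 1997 bp from that of Hcfc2.

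The rule fixes that no member shared 25% or more of its window with one of another stage, and the gap to the other stages' sites beyond that varied. The deposited HE interval, which is usually wider than the window, overlapped an interval of another stage in 774 members (7.83%, interval 7.32 to 8.38). Another stage had a site within 1 kb of the window in 1194 members (12.1%) and within 10 kb in 5546 (56.1%), and in 1084 (10.97%) the nearest was more than 50 kb away. By stage, the median gap was 14.7 kb to a MAC site, 20.5 kb to an HB site, 26.3 kb to an MES site and 29.6 kb to an HP site. The longer the list of the other stage, the shorter was this gap.

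The median distance of members to a coding TSS, which the rule sets above 2 kb, was 33.9 kb (quartiles 12.9 and 87.5 kb), compared with 26.9 kb for the 42460 other distal regions and 24.2 kb for the distal regions that HE shared with other stages. More than 100 kb separated 2180 members (22.1%, interval 21.2 to 22.9) from any TSS, against 16.4% of other distal regions. HB-only regions had a median of 34.5 kb, so the greater distance was not particular to HE. By annotation, 5146 members (52.1%) were intergenic, 4457 (45.1%) intronic, 165 (1.67%) in coding exons and 117 (1.18%) in untranslated exon parts, close to the other distal regions with 51.6% intergenic and 44.8% intronic. Of the 4739 members inside a gene, 3662 (77.3%) had that gene's TSS as the nearest.

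Some members lay in clusters. The next member was within 10 kb for 1884 of them (19.1%), and the median spacing was 39.3 kb. In the other sets the share within 10 kb was 39.7% for MAC-only, 26.2% for HE-shared, 9.83% for HB-only, 5.91% for MES-only and 4.45% for HP-only regions. These values depend on the number of regions in each set, which is highest for MAC-only. The densest stretches of up to 100 kb held 9 members each: around Kdr on chromosome 5, around the basement membrane collagen genes Col4a1 and Col4a2 on chromosome 8, and between Tmem170b and Adtrp on chromosome 13. Stretches with 8 members lay at Ptprb, Asap2, Ankrd46, Bahcc1 with Slc38a10, and Gata4 with Neil2, and stretches with 7 at Meis1, the Hoxb genes, Mpzl1 and Gprc5c. Chromosome 11 carried the most members per sequenced Mb (6.81) and chromosome X few (1.10), but on X members made up 26.7% of the distal regions, against 16.4% to 21.5% on the autosomes.

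The centres of members were of ordinary base composition. The median GC share of the central 500 bp was 0.484, compared with 0.486 for other distal regions, 0.512 for HE-shared regions and 0.412 for all 500 bp tiles of the genome more than 2 kb from a TSS. A CpG-rich centre (GC share of at least 0.5 and a CpG ratio of observed to expected of at least 0.6) was found in 207 members (2.09%, interval 1.83 to 2.40), in 3.47% of other distal regions and in 8.92% of HE-shared regions. Among single-stage regions the share was 4.52% in MES, 2.59% in HB, 1.02% in HP and 0.205% in MAC. Repeats made up 12.4% of the bases of members on average, against 13.04% in other distal regions, 10.8% in HE-shared regions and 36.9% in the genome tiles.

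To examine which factor motifs the members hold, 25 consensus sequences were searched on both strands of the central 500 bp. Of these, 8 were more frequent in members than in other distal regions, 10 were less frequent and the remaining 7 had a ratio whose interval included 1. Without MAC-only regions in the comparison, 6 were more and 7 less frequent, and against MES-, HB- and HP-only regions 7 were more and 7 less frequent. The largest ratio among the motifs of single factors was that of SOX. Its consensus occurred in 1296 members (13.1%, interval 12.5 to 13.8) and in 6.53% of other distal regions, a ratio of 2.01 (interval 1.89 to 2.14). It occurred in 7.29% of 500 bp windows 1.5 to 2 kb to either side of the members and in 8.58% of the genome tiles. The share was lower in every other group compared, at 6.51% in MES-only, 5.73% in HB-only, 4.81% in HP-only and 6.57% in MAC-only regions. Regions that HE shared with exactly 1 other stage had 8.85% (HB), 8.21% (HP) and 9.28% (MAC). Read backwards, the SOX consensus gave a ratio of 0.935 (interval 0.838 to 1.04).

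**Figure D1:**
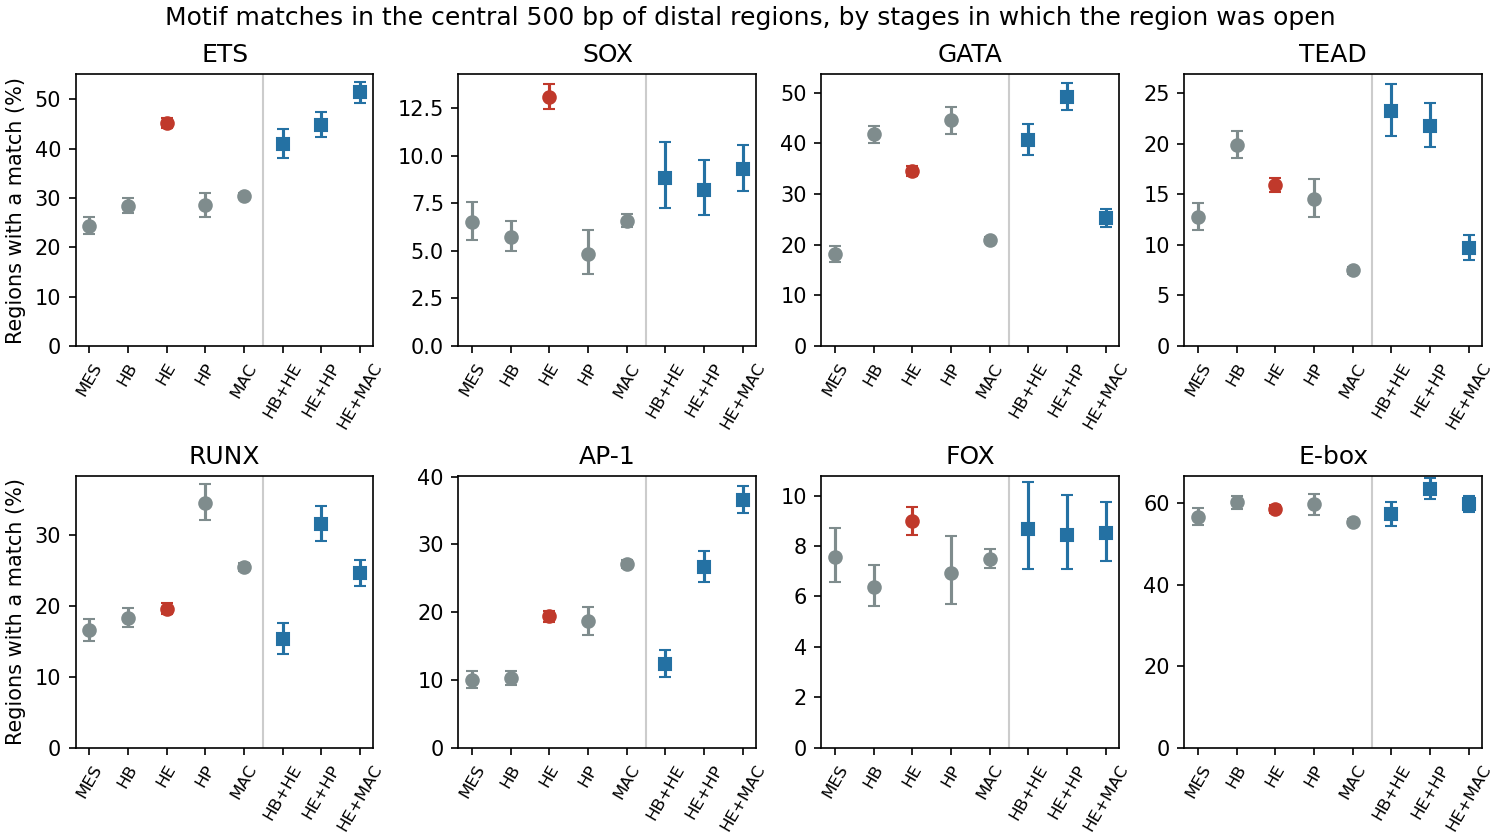
Share of distal regions with a motif match in the central 500 bp (%, vertical axis) for 8 motifs. Circles are regions open in a single stage (HE-only in red), squares are regions open in HE and 1 other stage, and bars are 95% Wilson intervals that cover counting error only. The SOX share was 13.1% in HE-only regions and at most 9.28% in the other groups, whereas ETS was high in every group that includes HE.

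The ETS consensus was present in 4467 members (45.2%, interval 44.2 to 46.2) and in 32.1% of other distal regions, a ratio of 1.41 (interval 1.37 to 1.44), and was 2.38 times as frequent as in the members' own flanks. Of the regions that HE shared with 1 other stage, it was present in 41.0% of those shared with HB (interval 38.0 to 44.0), 44.9% of those shared with HP and 51.4% of those shared with MAC. Single-stage regions of the other stages ranged from 24.3% (MES) to 30.4% (MAC). The backwards ETS consensus also gave a ratio above 1, of 1.10 (interval 1.05 to 1.15). The PU.1 consensus GAGGAAGT, whose first letters are close to those of ETS, was in 6.62% of members, 10.1% of other distal regions and 14.6% of MAC-only regions, but in only 3.51% of MES-only, 4.04% of HB-only and 4.37% of HP-only regions. Without MAC-only regions in the comparison its ratio was 1.08 (interval 0.988 to 1.18).

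GATA and TEAD matches were lower in members than in HB-only regions and higher than in MES-only and MAC-only regions. AGATAA was found in 3409 members (34.5%, interval 33.6 to 35.4), below HB-only (41.8%) and HP-only regions (44.5%) and above MES-only (18.1%) and MAC-only regions (21.0%). TEAD, the DNA-binding partner of the Hippo effectors YAP and TAZ, had a match in 15.9% of members, compared with 12.7% of MES-only, 19.9% of HB-only, 14.6% of HP-only, 23.3% of HB-and-HE and 7.47% of MAC-only regions. Against all other distal regions the ratios were 1.35 for GATA and 1.36 for TEAD, but 19983 of those 42460 regions were MAC-only. Without these the TEAD ratio was 1.03 (interval 0.979 to 1.09), and with every list reduced to as many of its widest sites as HP has it was 1.04 (interval 0.949 to 1.15). The backwards TEAD consensus gave 1.18 (interval 1.06 to 1.32). Set against distal regions open only in MES, HB or HP, the ratios were 1.00 for GATA (interval 0.959 to 1.04) and 0.964 for TEAD (interval 0.8997 to 1.03). SOX and ETS kept ratios of 2.26 (interval 2.03 to 2.51) and 1.67 (interval 1.597 to 1.74) in that comparison. The forkhead consensus was in 8.98% of members and 7.19% of other distal regions, and its ratio in the MES, HB and HP comparison was 1.31 (interval 1.18 to 1.45). It was in 8.66% of HB-and-HE, 8.42% of HE-and-HP and 8.50% of HE-and-MAC regions, and the intervals of all 3 ratios to these included 1. Against all HE-shared regions (7.31%) the ratio was 1.23 (interval 1.12 to 1.35).

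RUNX matches, by contrast, were no more frequent in members (19.6%, interval 18.9 to 20.4) than in their flanks (19.5%), with a ratio of 1.01 (interval 0.959 to 1.06). HP-only regions had 34.6%, regions shared by HE and HP 31.6% and MAC-only regions 25.5%, while HB-only regions had 18.3%, MES-only 16.6% and HB-and-HE regions 15.3%. The composite element that TAL1 and GATA factors bind together was found in 1.99% of members and 1.30% of other distal regions, a ratio of 1.53 (interval 1.30 to 1.79) that became 0.980 (interval 0.831 to 1.16) without MAC-only regions. It was in 7.51% of HP-only and 7.77% of HE-and-HP regions, 1.72% of HB-only, 0.422% of MES-only and 0.485% of MAC-only regions. The composite of ETS and E-box was rarer, in 60 members (0.607%) and 0.236% of other distal regions, a ratio of 2.58 (interval 1.87 to 3.55). Against HE-shared regions (0.453%) its ratio was 1.34 (interval 0.921 to 1.95). AP-1 was in 19.4% of members, 2.34 times their flanks, which was lower than in regions shared with MAC (36.6%) or HP (26.7%) and higher than in those shared with HB (12.3%, interval 10.5 to 14.5). Its ratio to all other distal regions was 0.881, but it was 1.65 (interval 1.53 to 1.77) against MES-, HB- and HP-only regions. E-boxes were in 58.7% of members and 57.2% of other distal regions, from 55.4% of MAC-only to 63.6% of HE-and-HP regions. In the members' flanks they were in 48.6%, a ratio of 1.21 (interval 1.18 to 1.23). CTCF, the insulator protein, was at 1.74% against 4.39%, the SP consensus GGGGCGGGG at 1.92% against 3.62%, and the T-box consensus TCACACCT of Brachyury and its relatives at 1.64% against 2.75%, with 6.78% in HB-only, 4.39% in MES-only, 1.68% in HP-only and 1.69% in MAC-only regions. MAC-only regions were lower than members for CTCF (1.38%) and SP (1.32%). In the members' flanks CTCF was at 0.268%, SP at 1.36% and T-box at 2.22%. The ratios to the flanks were 6.49 (interval 4.77 to 8.82), 1.41 (interval 1.18 to 1.70) and 0.738 (interval 0.617 to 0.882). SP reads the same backwards, so it has no backwards control.

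The position of the matches within the regions differed between motifs. SOX matches in members were 2.48 times as dense within 100 bp of the centre as more than 700 bp away (interval 2.25 to 2.74). In HE-shared regions the same quotient was 1.16 (interval 1.02 to 1.31). Forkhead matches went the same way, with 1.52 (interval 1.35 to 1.71) in members and 1.18 (interval 1.04 to 1.34) in shared regions. ETS matches were concentrated at the centre in both sets, with quotients of 3.33 and 2.91, as were TEAD (2.35 and 2.63) and GATA (1.49 and 1.496). AP-1 was less concentrated in members than in shared regions (2.95 and 4.07). RUNX matches had a quotient of 1.06 in members (interval 0.984 to 1.15) and 1.29 in shared regions (interval 1.20 to 1.38). With only the central 200 bp searched, the SOX ratio to other distal regions rose to 2.68.

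**Figure D2:**
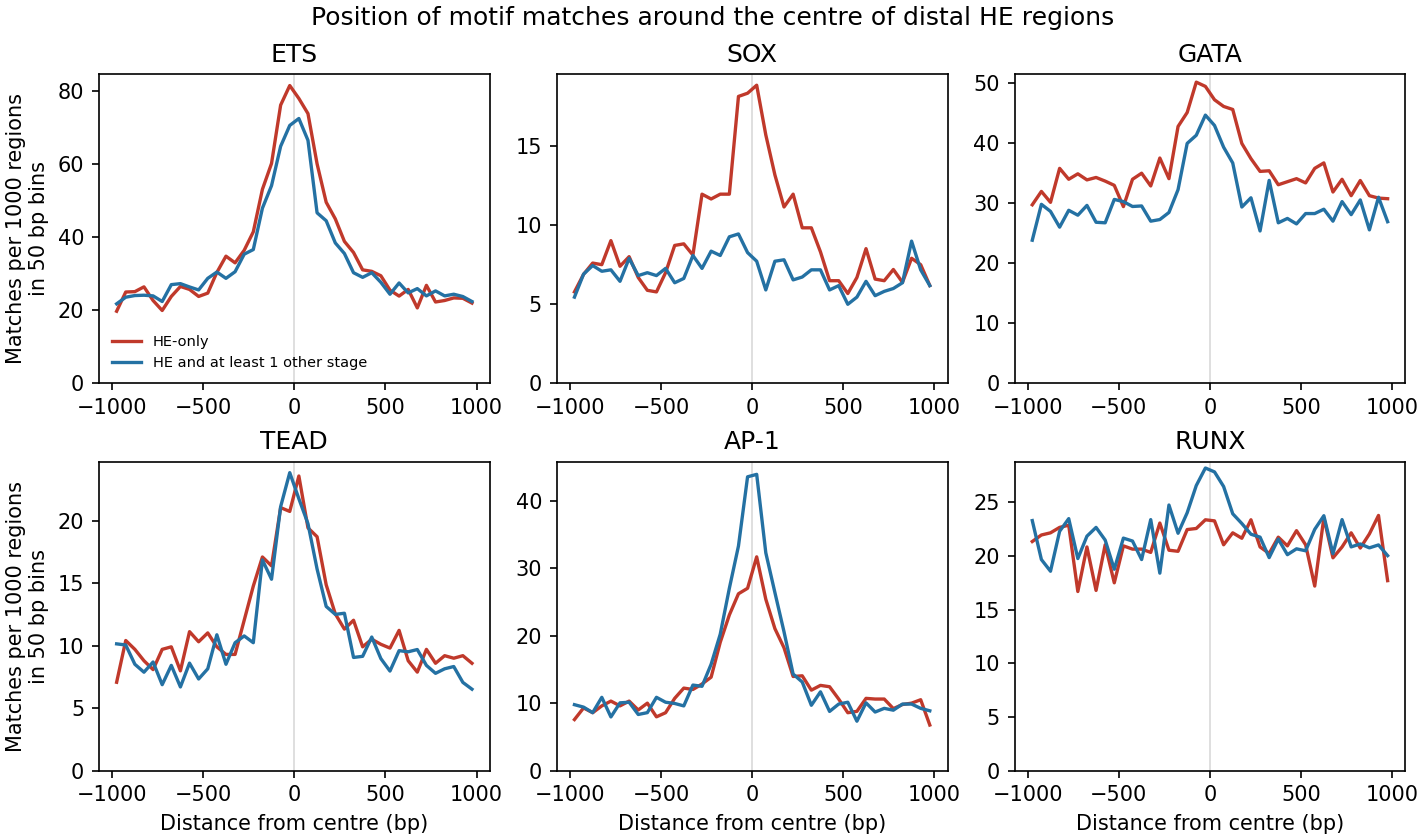
Motif matches per 1000 regions in 50 bp bins (vertical axis) by distance from the region centre (horizontal axis, bp), for HE-only distal regions (red) and distal regions open in HE and at least 1 other stage (blue). SOX peaks at the centre in HE-only regions, 2.48 times the level at the edges, and is nearly flat in the shared ones, whereas RUNX is flat in the HE-only regions.

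To look beyond the chosen consensus sequences, all 7-letter words found in at least 2% of other distal regions, 6146 counting a word and its reverse complement as 1, were ranked by their ratio of shares in members and other distal regions on the odd-numbered autosomes, and the values were then read on the even-numbered ones. The first word was CCATTGT itself, with a ratio of 2.14 on the odd autosomes and 1.91 (interval 1.74 to 2.09) on the even ones, where 4526 members lay. CATTGTT followed with 2.00 on the even autosomes, GAACAAT with 1.76 and CTATTGT with 1.91. Of the first 15 words, 10 contained the SOX core ATTGT, 3 contained GGAA of the ETS core, of which CAGGAAA (1.62) was the most enriched, and GATAAGA (1.497) was an extended GATA site. On the even autosomes the interval lay above 1 for 14 of the 15 words. The 10 words lowest in members were all rich in C and G, such as CGCCCCC, and their ratios on the even autosomes were 0.363 to 0.740.

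The letters around the matches were compared between the centres of members and their flanks. After CCATTGT, the next base was T in 39.2% of the 684 matches within 100 bp of the centre and in 28.5% of 1500 flanking matches, and A in 8.63% against 16.5%. AGATAA was followed by G in 38.96% of central and 22.1% of flanking matches. The ETS consensus was preceded by A in 35.5% against 25.5% and followed by T in 29.6% against 19.4%. In HE-shared regions the base after GATA was G in 45.2% and the base after ETS was T in 29.9% of central matches. The base after SOX was T in 29.1% and A in 9.71% of 340 central matches there.

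Motifs were combined in members more often than in other distal regions as a whole. At least 3 of the 8 motifs occurred in 3682 members (37.2%, interval 36.3 to 38.2) and in 26.7% of other distal regions, and none occurred in 6.73% and 10.3%. HP-only regions were near the members, with at least 3 motifs in 35.8% (interval 33.3 to 38.4). ETS with SOX was found in 575 members (5.82%) and 2.04% of other distal regions. The product of the 2 single shares in members is 5.92%, so the observed value was 0.982 of it. Among regions that held both, a gap of at most 20 bp separated the nearest ETS and SOX matches in 15.0% of members (interval 12.3 to 18.1) and 10.5% of other distal regions (interval 8.64 to 12.7), so these intervals overlapped. They did not overlap for ETS and GATA, with 17.8% (interval 15.9 to 19.8) against 12.9% (interval 11.8 to 14.1), or for ETS and E-box, with 19.1% (interval 17.7 to 20.7) against 16.5% (interval 15.7 to 17.3). The other 4 pairs examined also had overlapping intervals, at 14.5% against 12.9% for GATA and SOX, 14.4% against 12.8% for ETS and TEAD, 10.6% against 10.5% for TEAD and SOX and, for GATA and E-box, 309 of 1931 members against 924 of 6130 other distal regions. A second SOX match was present in 95 members (0.961%) and in 0.316% of other distal regions. For ETS, 2 or more matches were present in 12.6% against 6.58%, and for GATA in 7.55% against 4.91%. More matches per region can shorten the nearest gap, and their part in the spacing was not tested.

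Members were not uniform in their motifs. GATA matches rose from 30.1% of members within 20 kb of a TSS to 35.4% between 20 and 100 kb and 39.9% beyond, and SOX from 11.4% to 13.1% and 15.96%, while ETS stayed between 44.1% and 46.3%. The median GC share fell in the same order, from 0.496 to 0.482 and 0.466, and its part in these trends was not tested. The 774 members whose deposited interval overlapped one of another stage had fewer matches, with ETS in 34.9%, SOX in 8.79%, GATA in 22.0% and TEAD in 8.79%. In the 4339 members with no other stage's site within 10 kb, the values were 46.2%, 14.9%, 38.4% and 17.6%. By deposited width, ETS was in 41.7% of members up to 600 bp, 48.0% of those of 1000 to 1300 bp and 44.2% of those of 1400 bp or more, and SOX in 12.3%, 13.7% and 12.6%. TEAD fell from 17.7% of the narrowest to 11.6% of the widest class, and AP-1 from 19.8% to 13.9%.

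Each member was then given to the protein-coding gene with the nearest TSS, which need not be the gene it acts on. Of 21000 genes, 5394 (25.7%) were nearest to at least 1 member and 316 (1.5%) to at least 5, and the latter held 2059 members (20.8%). Genes with long stretches of their own can collect more members, so the number of other distal regions and the length of the territory (the sequenced bases more than 2 kb from a TSS for which the gene's TSS was nearest) are given too. Over all genes there were 3.86 members per Mb of territory, and members were 18.9% of distal regions.

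Nfib, a nuclear factor I gene, had the most members, 15 of its 22 distal regions, followed by Smad7, the inhibitory SMAD of BMP and TGF-beta signalling, with 14 of 39. Diaph3 and Enc1 had 13 each. With 12 each came Adgrl2, the ETS factor gene Ets1, Maf, Mast4, Myc and Zfp608. The remaining genes of the first 15 had 11 each: 1500009L16Rik, the VEGF receptor gene Kdr, Med13l, the VEGF co-receptor gene Nrp1 and the polarity gene Pard3. Ptprg, left out by alphabetical order, also had 11. Density separated them, from 5.24 members per Mb at Adgrl2 and 8.33 at Myc to 39.5 at Kdr and 41.7 at Smad7.

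The genes of 14 lists were examined, the endothelial ones first. Of 42 genes for endothelial surface proteins and ligands, 30 (71.4%, interval 56.4 to 82.8) had a member, against 25.7% of all genes, and 8 had at least 5, against 1.5%. These 42 genes had 106 members, 10.5 per Mb, which were 28.4% of their distal regions (interval 24.1 to 33.2). Ptprb, the phosphatase VE-PTP that restrains Tie2, had 8 of its 12 distal regions as members, 55.5 per Mb. All 6 distal regions of Adgrl4, an endothelial adhesion receptor, were members, as were all 3 of Flt4, the lymphatic VEGF receptor, and 4 of the 5 of Tek, which encodes Tie2. Adgrf5 had 6 of 9, Kdr 11 of 27, Nrp1 11 of 43, Efnb2 8 of 30, Nrp2 6 of 22 and Kit 5 of 13. Other genes of the list had low shares, with 0 of 9 at Vwf, 0 of 7 at Angpt2, 2 of 15 at Cdh5 and 2 of 17 at Flt1.

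Of 28 genes for endothelial transcription factors, 24 (85.7%) had a member and 11 had at least 5, with 10.9 members per Mb and 29.2% of distal regions (interval 24.8 to 34.1). The ETS genes of the list had 12 members at Ets1, 6 at Etv6, 5 each at Elk3 and Fli1, 3 at Erg, 2 at Ets2 and none at Etv2. Fli1 was the densest of these, at 42.7 per Mb. Foxo1, Tbx3 and Tcf4 had 9 each, and 7 each were found at Epas1, the hypoxia factor HIF2A, at Mef2c and at Prox1, the lymphatic regulator. Nr2f2, which specifies veins, had 5 in 1774 kb.

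For 30 regulators of blood development, 17 (56.7%) had a member, and members were 18.7% of their distal regions (interval 14.6 to 23.7), against 18.9% over all genes. Myc had 12, Mecom and Meis1 9 each and Bcl11a 5. Runx1 had 3 of 47 distal regions as members and Gata2 1. The 20 erythroid and megakaryocytic genes had 2 members in all, and 6 of 25 macrophage genes had a member, with 12 members at Maf and 5 at Irf8. Members were 12.2% of the distal regions of macrophage genes and 7.14% of those of erythroid and megakaryocytic genes.

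Some of the other lists were as high. They share genes with the endothelial lists, such as Cdh5 in adhesion and matrix and Tbx3, Klf2 and Klf4 in pluripotency. Acvrl1, Eng and Id1 are also in the BMP and TGF-beta list, and Hey1, Hey2 and Heyl in the Notch list. The members of shared genes count in each list. Among 31 genes of adhesion and matrix, 27 (87.1%) had a member and members were 30.1% of distal regions (interval 25.2 to 35.4), with Col4a2 and Rapgef5 at 9 each. Among 25 heart, muscle and mesenchyme genes, 17 had a member, and the share was 28.1%, with 6 at Gata4 and 5 each at Hand1 and Hand2. The 27 BMP and TGF-beta genes had 66 members, led by Smad7 with 14 and Tgfbr2 with 8, and a share of 22.0% (interval 17.7 to 27.0). Notch genes had 18.2%, with 8 at Maml2 and 6 at Hes1, and Hippo genes 22.3%, with 4 each at Ccn2, Tead4 and Wwtr1. Pluripotency genes had 21.8%, of which Nr5a2 held 10 and Tbx3 9. Mesoderm genes had 11.7%, with 4 at Eomes and 2 each at Foxf1 and Pdgfra. Neural genes had 24.6% (interval 15.99 to 36.0), with 3 each at Gad2, Pax6 and Sox1. Housekeeping genes had 16.4 members per Mb in a territory of 0.671 Mb, and a share of 17.7%, with 4 at Ywhaz and 2 at Ppia.

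**Figure D3:**
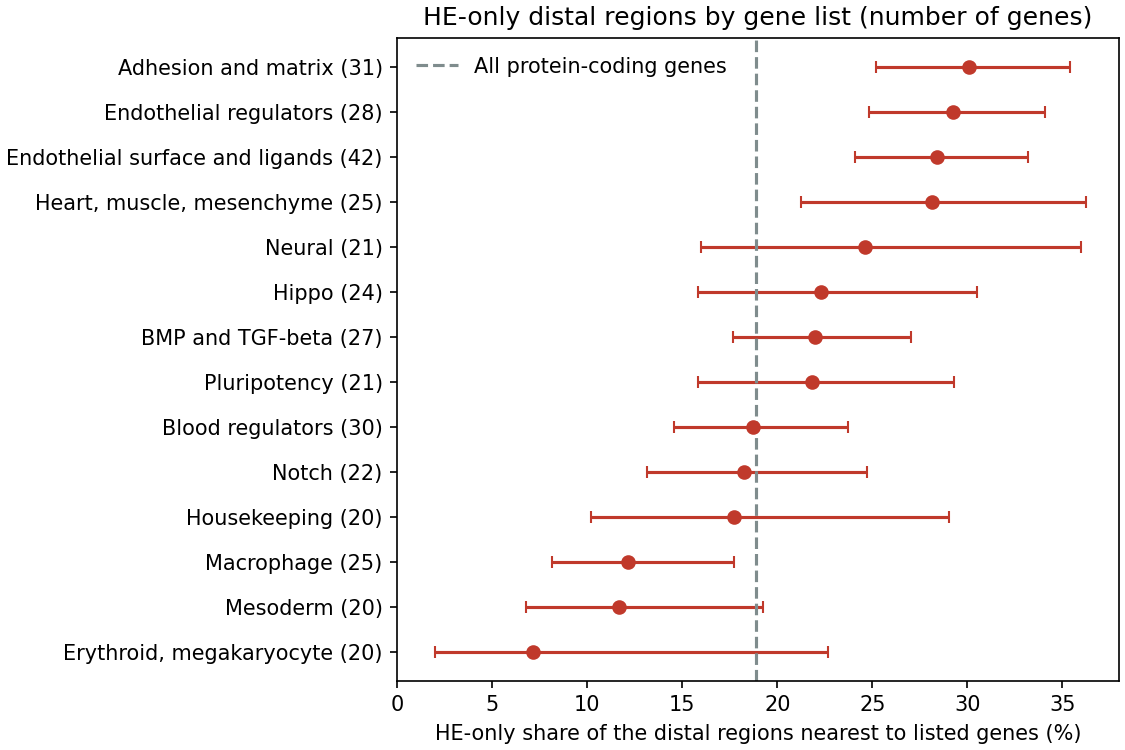
HE-only share (%, horizontal axis) of the distal regions nearest to the genes of each of 14 lists, with 95% Wilson intervals that cover counting error only. The dashed line is the share over all protein-coding genes, 18.9%. Adhesion, endothelial and heart and mesenchyme lists lie between 28.1% and 30.1%, and macrophage genes at 12.2%.

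At 10 genes of the endothelial and blood programme, 37 members were placed one by one. In all, 22 were intergenic, 12 intronic and 3 in untranslated exon parts. An ETS match was present in the central 500 bp of 15, a GATA match in 15, a SOX match in 2 and an E-box in 23. Over all members the shares were 45.2% for ETS, 34.5% for GATA, 13.1% for SOX and 58.7% for E-boxes. Kdr had 11, from chr5:76040426-76040925, 62.2 kb upstream, to chr5:75896576-75897075, 81.6 kb downstream of its TSS. One in its first kilobases (chr5:75974776-75975275), 3.43 kb downstream and intronic, carried a SOX match and an E-box. The windows of 2 Kdr members overlapped a deposited interval of another stage, as did 1 each at Notch1 and Sox17.

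Tek had 3 members upstream, at 23.7, 18.7 and 13.3 kb, and 1 in an intron 7.17 kb downstream (chr4:94746208-94746707) with ETS, E-box and RUNX matches. The nearest site of another stage was 21799 bp from any of them. Cdh5, which encodes VE-cadherin, had members 59.0 and 5.502 kb upstream (chr8:104042374-104042873 and chr8:104095874-104096373), each with an ETS match and an E-box. The 3 members of Erg all lay in its introns, 9.98 to 84.3 kb from the nearest of its TSSs, and all had an ETS match. Fli1 had members 24.1, 14.8 and 8.35 kb upstream and 11.4 and 21.7 kb downstream, and all 5 had an E-box. At Notch1, 2 members lay upstream (12.1 and 3.95 kb) and 2 in introns (5.65 and 10.4 kb).

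Among the 3 members of Sox17, those 126 and 105 kb upstream (chr1:4623091-4623590 and chr1:4602291-4602790) carried GATA, E-box and AP-1 matches, and 1 in an intron had none of the 8 motifs. At Runx1, members lay 354, 246 and 31.0 kb upstream of the TSS, and the nearest (chr16:92856869-92857368) held GATA, SOX, E-box and RUNX matches. Gata2 had 1, 41.7 kb upstream (chr6:88151959-88152458), with an ETS match and an E-box. Tal1 had 1, in an untranslated exon part 15.3 kb downstream of the outermost TSS, with none of the 8 motifs.

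**Figure D4:**
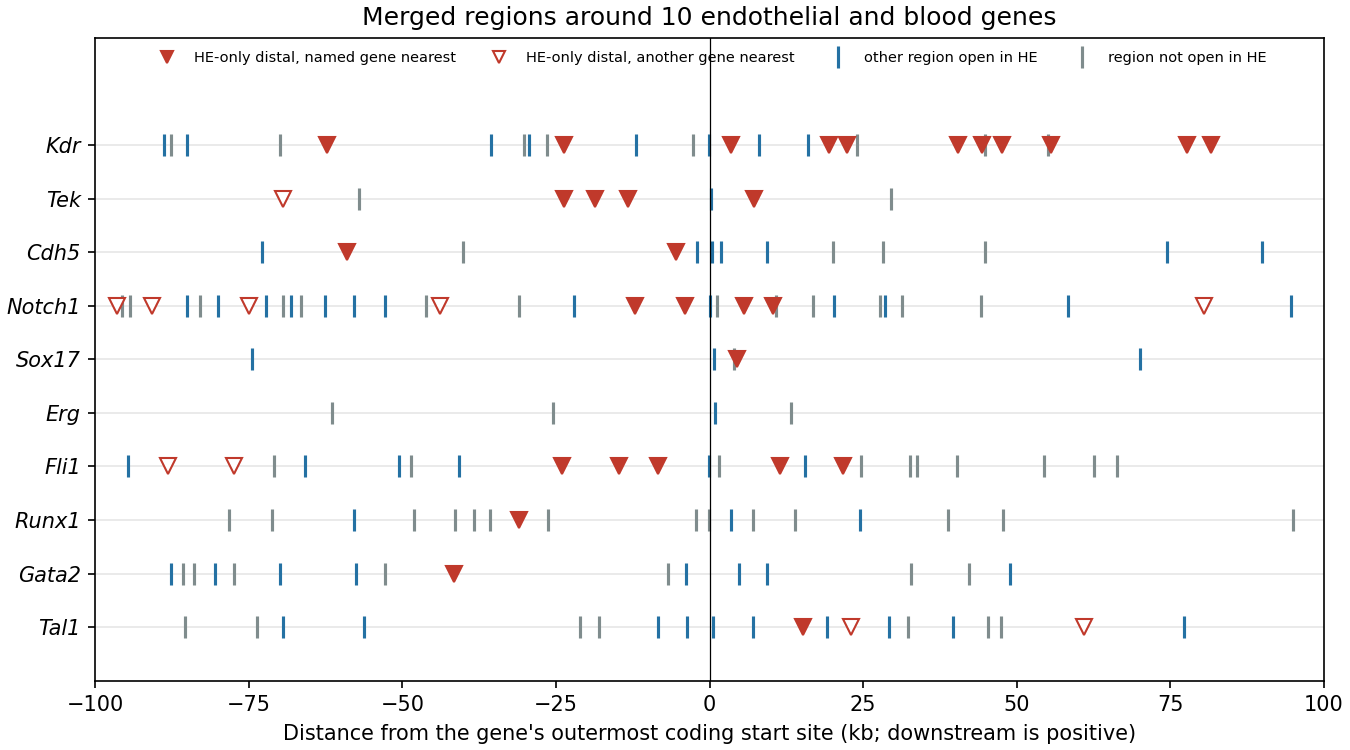
Merged regions within 100 kb of the outermost coding start site of 10 genes, by distance (kb, horizontal axis, downstream positive). The red triangles are HE-only distal regions, filled when the named gene was nearest, and 7 of the 37 members of these genes lie beyond the plotted range. Blue ticks are other regions open in HE and grey ticks regions not open in HE. All 4 filled triangles of Tek lie within 23.7 kb of its start site, and Kdr has 11.

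The question whether genes near members had open promoters was addressed last. A site within 1 kb of a TSS was present in HE at 60.3% of all genes. It was present at 55.1% of the 15606 genes with no member, 71.9% of those with 1, 79.3% of those with 2 to 4 and 88.0% of the 316 with at least 5 (interval 83.9 to 91.1). In HP the values over these classes were 46.3%, 56.4%, 56.9% and 61.4%, and in MAC 46.4%, 54.9%, 54.6% and 57.0%. A promoter open in HE but not in HP was found at 9.65% of genes with no member and 27.2% of those with at least 5. The territory grew along with the class, with medians of 33.3, 76.5, 166 and 390 kb. Genes grouped by their MAC-only distal regions rose likewise, in HE from 51.8% to 82.6% and in MAC from 40.7% to 68.2%, so an increase with the number of distal regions was not particular to the members.

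A promoter site in HE alone was present at 3.19% of all genes. It was found at 2.64% of genes with no member (interval 2.40 to 2.90), 4.35% with 1, 5.17% with 2 to 4 and 6.96% with at least 5 (22 genes, interval 4.64 to 10.3). Of those 22 genes, Nfib had the most members with 15, followed by Opcml and Ptprb with 8 each and Kcnip1 and Rbms3 with 7 each. Bmp2 with 6 and Hand2 with 5 were also among them. Tek, with 4 members, also had its promoter site in HE alone.

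**Figure D5:**
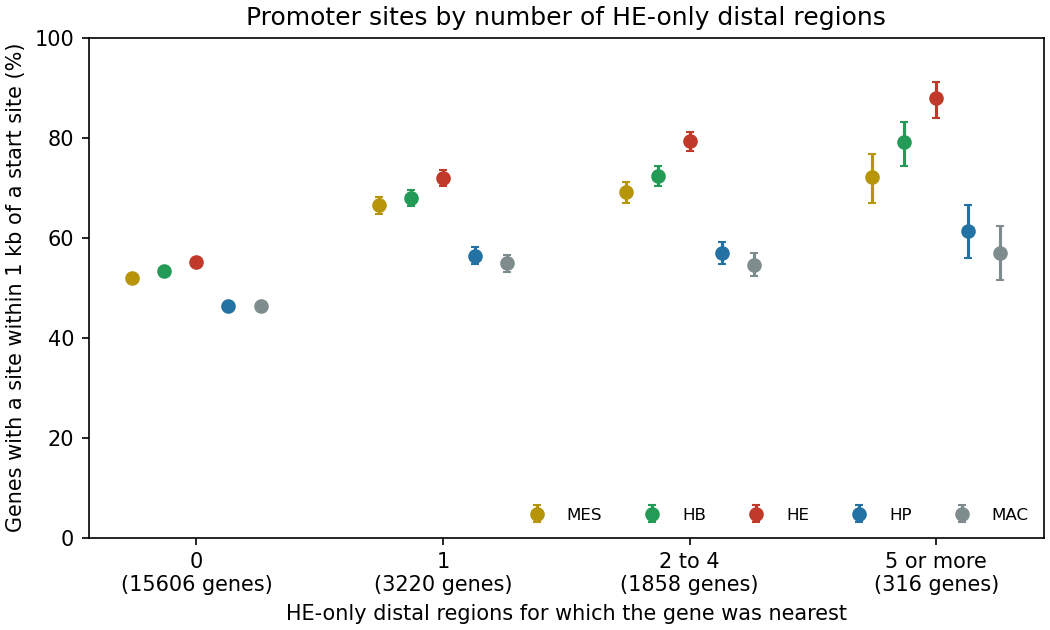
Share of protein-coding genes with a site within 1 kb of a start site (%, vertical axis) in each stage, for genes grouped by the number of HE-only distal regions for which they were nearest. Bars are 95% Wilson intervals that cover counting error only. The HE share rises from 55.1% to 88.0%, and the median territory of the genes rises from 33.3 to 390 kb over the same groups.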

How the data were processed

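DNaseI-seq sites were analysed for 5 stages, with 1 deposited list per stage. The lists deposited by the authors give positions in bp only (chromosome, start and end on mm10), with no signal, count or p-value. According to the study's methods and labels, reads were trimmed with CutAdapt, aligned with Bowtie, cleared of duplicates with Picard and called with DFilter in 100 bp bins, and HOMER is also named; versions are not given in the sources used here. Calling thresholds and read depth could change the length of each list and which regions appear in 1 stage only, and their part was not tested. Windows, regions, matches and distances were computed with Python 3.11.15, numpy 2.4.6 and numba 0.67.0, using the GRCm38.p6 genome and RefSeq annotation (25999 coding TSS positions of 21000 genes, primary chromosomes). Motifs were matched exactly on both strands, and overlapping matches of different motifs each counted. Shares have 95% Wilson intervals, ratios intervals on the log scale. The counting was tested on simulated sites. Genes named are the 15 with most members (ties in alphabetical order) and those of the endothelial and blood lists with at least 5. The 2 with most in other lists and 10 loci were also named. Flt4, Bmp2, Hand2, Opcml, Kcnip1 and Rbms3 were named after their values were seen. So were the endothelial surface genes with low shares and the genes given as shared between lists. Members, gene lists and motifs were chosen with earlier results of these data known, and the word ranking, the letters beside matches, the gaps between matches and the comparison with single-stage regions of MES, HB and HP were added after the first values. All listed genes were matched. Some listed genes are not reported here by name. The regions whose sequences are printed were chosen without chromosome 18.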

Additional observations from a re-analysis of the deposited data

How the results depend on the processing

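No paired analysis was possible because each stage was 1 list and no result came from a test between replicates. The number of HE-only distal regions was 9885 as reported. It was 4313 when sites narrower than their list's median were dropped, 3007 when every list was reduced to its widest sites and so to as many as HP has, and 6356 with centres over 20 kb from a TSS, and stayed within 1.5 times under the other 6 settings. With the widest sites, members were 11.6% of distal regions, and 24.1% and 21.5% of those of the endothelial surface and endothelial transcription factor lists. The CpG-rich share was 1.74% without members that had another stage's site within 1 kb, 1.23% beyond 20 kb, 2.41% at an overlap of 250 bp and 3.19% with the widest sites. The share over 20 kb from a TSS, 64.3%, was 65.9% without members near another stage's site. Read backwards, 3 motifs were above and 2 below other distal regions, in place of 8 and 10, and the ratios of SOX (0.935) and forkhead (0.952) fell below 1. The E-box ratio, 1.03, was 1.000 with the widest sites, 0.990 in the central 200 bp, 0.998 without MAC-only regions in the comparison and 0.995 against MES-, HB- and HP-only regions. Those last 2 comparisons, chosen after seeing the data, gave 1.11 and 1.65 for AP-1, and the second gave 1.000 for GATA and 0.964 for TEAD. SOX and ETS stayed above 1 under every setting that kept their letters as written, SOX between 1.59 and 2.68. The lists carry no depth, so an absent site cannot be told from one below the calling threshold. Openness in HE alone rests on 1 sample and was not compared with undifferentiated ES cells.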
